A study of Mus musculus with 24 samples.

Results

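The 9 genes described here encode transporters, channels, tight junction proteins, a kinase and luminal or buffering proteins of the thick ascending limb and the distal tubule of the mouse kidney. They were chosen by name, as Slc12a1, Slc12a3, Umod, Kcnj1, Cldn16, Cldn10, Wnk1, Trpm6 and Calb1, among 21951 annotated protein-coding genes. Every m6A peak of 12 kidneys that overlapped an exon of these genes on the same strand was taken, which gave 31 of 91013 listed peaks. Peaks that overlapped between kidneys were joined into loci, and the 31 peaks formed 7 of 16801 loci. A peak was listed for 4 of the 9 genes (44.4%), beside 7774 of all genes (35.4%), and 5 genes had no peak in the lists analysed here.

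The animals were male C57BL/6 mice 8 weeks old, with 4 kidneys in each of 3 groups. Mice of the injury group (IG) received daily intraperitoneal saline and then intravenous cisplatin at 20 mg/kg, a platinum drug that injures tubules. Mice of the treatment group (TG) received berberine, a plant alkaloid, at 20 mg/kg per day for 14 days and then the same dose of cisplatin. Control mice received saline in place of berberine and vehicle in place of cisplatin, and all kidneys were taken 72 h after the injection. The methylation was read by MeRIP-seq, in which fragments of mRNA are pulled down with an antibody to N6-methyladenosine and sequenced. IG was compared with control (IvC) and TG with IG (TvI), which asks which sites differ after cisplatin and which differ when berberine precedes it.

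The thick ascending limb takes up sodium, potassium and chloride without water, which dilutes the urine and drives the reabsorption of calcium and magnesium between its cells. Slc12a1 encodes the apical cotransporter NKCC2, the target of loop diuretics, and Kcnj1 encodes ROMK, the channel that returns potassium to the lumen. Cldn16 and Cldn10 encode claudins of the paracellular path, and Umod encodes uromodulin, the most abundant protein of normal urine. In the distal convoluted tubule, Slc12a3 encodes the thiazide-sensitive cotransporter NCC, Wnk1 a kinase upstream of NCC and NKCC2, Trpm6 an apical magnesium channel, and Calb1 the calcium-binding protein calbindin. m6A is the most common internal modification of mRNA, and it is written mainly in a 5-base motif with a central AC.

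The number of listed peaks was 8531 to 9579 in the control kidneys, 6745 to 8357 in IG and 5901 to 6753 in TG, so 3 of the 4 TG lists were shorter than any IG list. The score of a peak is the negative log10 of its p-value multiplied by 10, and the lowest scores lay just above 13.0. To compare lists of unequal length, each score was also given as its percentile within the list of its own kidney, with 0 for no listed peak. Without read counts the depth is unknown, and 4 kidneys per group limit the precision. Expression of the genes was not analysed here. In this bulk tissue, fewer cells of a type and less RNA per cell cannot be told apart, and neither can be told apart from less methylation per transcript.

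4 stretches of coding sequence and 1 short site are shown first, because they lie in listed peaks of Slc12a1, Trpm6 and Kcnj1. They were read from the GRCm38 (mm10) genome on the strand of the gene, from 5′ to 3′. Capitals mark the m6A consensus, which is AAAC or AGAC or GAAC or GGAC with A or C or T after it, 12 forms in all. These stretches were chosen after the values were seen, and the windows of 150 bases were placed where the form GGACT and then any form was most frequent. The first is 30 bases of exon 1 of Slc12a1, a 5′ UTR exon, at chr2:125152530-125152559 (+), ending with the 1 consensus match of that exon. The next are the whole coding exons 24 and 25 of Slc12a1, at chr2:125219737-125219823 and chr2:125225928-125226063. The last are 150 coding bases each of Trpm6 exon 26 at chr19:18854204-18854353 (+) and Kcnj1 exon 2 at chr9:32397006-32397155 (+).
Slc12a1 exon 1: gagcagaagcctaaggttgtagcttAAACT
Slc12a1 exon 24: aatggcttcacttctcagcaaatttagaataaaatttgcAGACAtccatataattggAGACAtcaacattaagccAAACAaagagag
Slc12a1 exon 25: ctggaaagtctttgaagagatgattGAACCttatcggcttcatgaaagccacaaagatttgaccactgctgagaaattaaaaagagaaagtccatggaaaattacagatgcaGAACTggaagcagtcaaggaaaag
Trpm6 exon 26: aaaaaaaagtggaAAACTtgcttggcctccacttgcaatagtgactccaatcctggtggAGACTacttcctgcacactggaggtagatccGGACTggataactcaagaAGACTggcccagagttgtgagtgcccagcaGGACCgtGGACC
Kcnj1 exon 2: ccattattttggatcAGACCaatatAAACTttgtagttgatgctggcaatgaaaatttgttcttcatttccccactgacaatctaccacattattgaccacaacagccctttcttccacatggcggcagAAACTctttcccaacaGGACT

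The consensus was counted over whole loci on both strands, and set beside all loci within 20% of its length. Slc12a1 exon 1 held 1 match on the strand of the gene and 1 on the opposite strand, where 89.6% of 2766 loci of like length held at least 1 match on the strand of the gene and 64.7% on the opposite strand. The form GGACT was absent from all 4 Slc12a1 loci on the strand of the gene. Of loci of like length, 9.94%, 53.8%, 6.66% and 11.3% held it for exons 1, 2, 24 and 25. Exon 25 held 1 GGACT on the opposite strand, where 11.4% of loci of like length held it. Trpm6 exon 26 held 28 matches, of which 2 were GGACT, beside a median of 18 matches in 1740 loci of like length, and 74.1% of those loci held GGACT. Kcnj1 exon 2 held 39 matches, of which 3 were GGACT, beside a median of 42 matches in 689 loci of like length. Of those loci 93.0% held GGACT. The opposite strand held 10 matches at Trpm6 exon 26 and 51 at Kcnj1 exon 2. These are counts of letters, and the lists do not say which adenosine is methylated.

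Slc12a1 (ENSMUSG00000027202) had 4 of the 7 loci and 10 of the 31 peaks, and its exon 1 was the single member locus at which IG stood apart from another group. Exon 1 of 27 lies at chr2:125152505-125152633 (+), spans 129 nt and holds no coding base. In the IG kidneys the scores were 262.37, 635.18, 786.12 and 190.42, all above the median score of their own lists. In the control kidneys 1 peak was listed, with a score of 34.52 in control 1, and in the TG kidneys no peak was listed. The 4 IG kidneys lay above every control and every TG kidney, and the groups did not overlap in either comparison. This direction rests on the groups as the sample titles give them. Havcr1, which encodes the injury marker KIM-1, had a peak at exon 3 in 0 control, 4 IG and 3 TG kidneys, with a mean percentile of 57.8 in IG and 63.9 in TG. The labels IG and TG were not checked against each other.

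In percentiles, Slc12a1 exon 1 stood at 83.1 ± 9.18 (SD, n = 4) in IG, 7.40 ± 14.8 (n = 4) in control and 0 in all 4 TG kidneys. The difference was 75.7 percentile points in IvC, with p = 0.0286 in a two-sided exact permutation test, the smallest p that 4 against 4 kidneys allows, and a Benjamini-Hochberg adjusted p = 0.225 over 16061 loci. In TvI the difference was -83.1 points, with an exact permutation p = 0.0286 and an adjusted p = 0.798 over 13357 loci. Listing alone gave 4 against 1 kidney in IvC (two-sided Fisher's exact p = 0.143) and 0 against 4 kidneys in TvI (Fisher's exact p = 0.0286, adjusted p = 1). No locus of all those tested passed an adjusted p of 0.05 in any comparison, and Slc12a1 exon 1 did not either. With 0.0286 as the smallest p of both tests, passing would need most loci to reach that smallest p. The adjustment could therefore hardly pass any locus here. The 4 IG kidneys had longer lists than 3 of the 4 TG kidneys. With all lists cut to the same length, the groups at exon 1 did not overlap in either comparison.

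The other 3 Slc12a1 loci were listed in few kidneys, as the map along the spliced transcript shows. Exon 2, at chr2:125153731-125154321, spans 591 nt and holds the start codon with 393 coding bases. It had a score of 233.64 in control 1 and of 450.39 in IG 3, and no peak elsewhere. The coding exon 24, at chr2:125219737-125219823 (87 nt), was listed in IG 3 alone, with a score of 81.07. The coding exon 25, at chr2:125225928-125226063 (136 nt), was listed in IG 2 with 30.32 and in IG 3 with 117.23. Thus IG 3 held all 4 Slc12a1 loci, control 1 held both loci at the 5′ end, and exons 24 and 25 were listed in IG kidneys and in no kidney of the other groups. None of these 3 loci separated the groups, with exact permutation p from 0.429 to 1 in IvC and in TvI.

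**Figure D1:**
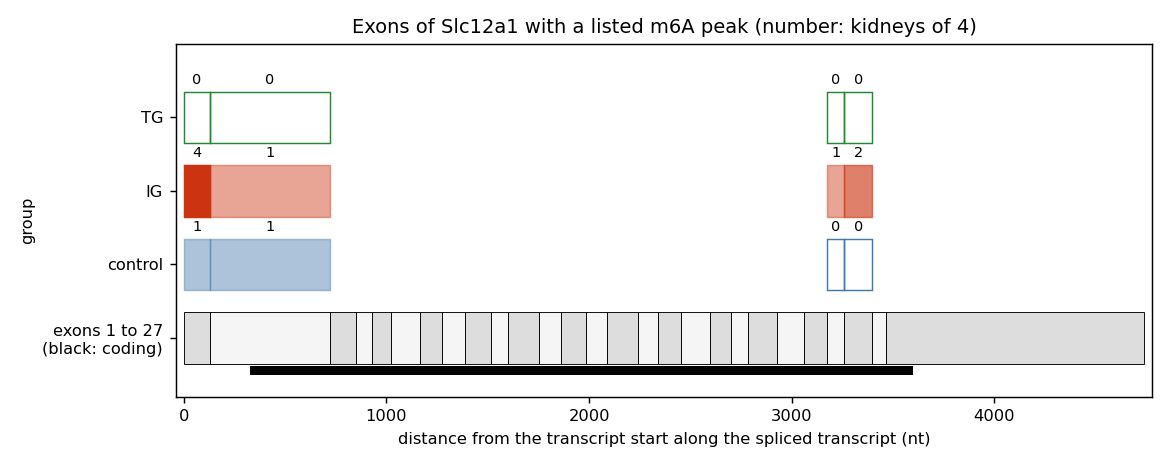
Exons of Slc12a1 along the spliced transcript (horizontal axis, distance from the transcript start in nt), with a row for each group and the number of kidneys of 4 with a listed peak above each box. Fill darkens with that number and the black bar marks the coding bases. Exon 1 has 4 IG kidneys, 1 control and 0 TG kidneys.

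Counted per gene, Slc12a1 had 2, 0, 0 and 0 listed peaks in the 4 control kidneys, 1, 2, 4 and 1 in IG, and 0 in every TG kidney. The groups did not overlap in TvI (exact permutation p = 0.0286, adjusted p = 1 over 6666 genes) but overlapped in IvC through control 1 (exact permutation p = 0.2, adjusted p = 0.943 over 7526 genes). All 10 Slc12a1 peaks spanned an annotated exon from end to end, as did 64.5% of all listed peaks, so the position of a site within an exon is not resolved.

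Trpm6 (ENSMUSG00000024727) had a peak in 4 control, 2 IG and 0 TG kidneys. Its single locus is exon 26 of 39, at chr19:18853327-18854468 (+), 1142 nt of coding sequence and the longest exon of the gene. The scores were 93.23, 15.42, 14.86 and 37.69 in the control kidneys, and 31.62 in IG 2 and 13.63 in IG 3. Most of these peaks were weak, since 1 of the 6 scored above the median of its own list and 3 had scores under 16 near the lowest score of the lists. Of the 6 peaks, 3 spanned the whole exon, and all 6 shared the 481 bases at chr19:18853988-18854468.

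For Trpm6 exon 26 the mean percentile was 24.2 ± 24.7 (SD, n = 4) in control, 7.24 ± 13.3 (n = 4) in IG and 0 in TG. The control and IG kidneys overlapped (exact permutation p = 0.171 in IvC), as did IG and TG (exact permutation p = 0.429 in TvI). TG against control (TvC), a comparison added after the values had been seen, separated 4 from 0 kidneys, with a Fisher's exact p = 0.0286 for listing (adjusted p = 0.605) and an exact permutation p = 0.0286 for the percentile (adjusted p = 0.197) over 15156 loci. Peaks were listed less often at many loci in TvC, where 3.73% of loci were lower by listing and 11.7% by percentile. By number of peaks per gene, Trpm6 was likewise lower in TvC, as were 7.35% of genes. With the same number of peaks kept in every kidney, or with scores under the median of all lists left out, Trpm6 exon 26 no longer separated TG from control.

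Kcnj1 (ENSMUSG00000041248), which encodes ROMK, had a peak in 1 control, 2 IG and 3 TG kidneys. The locus is its last exon, exon 2 of 2, at chr9:32396321-32399194 (+), with 2874 nt of which 1137 are coding. The scores were 643.64 in control 2, 62.46 in IG 2, 595.27 in IG 3, and 532.57, 240.09 and 47.95 in TG 1, TG 2 and TG 3. Among the kidneys with a peak, the single control score was the highest and the IG and TG scores overlapped, with percentiles from 41.3 to 91.3 in all. The exact permutation p was 1 in IvC, 0.743 in TvI and 0.486 in TvC, so the order of the groups by number of kidneys was not distinguishable from the spread within them.

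Wnk1 (ENSMUSG00000045962) was the member with a listed peak in the most kidneys, 9 of 12, and 3 of 4 in each group. The locus is exon 7 of 28, at chr6:119969237-119969570 (−), a coding exon of 334 nt that all 9 peaks spanned from end to end. The scores were 129.94, 76.30 and 141.02 in control 1, 3 and 4, then 70.27, 109.40 and 20.05 in IG 1, 2 and 4, and 21.46, 27.98 and 72.41 in TG 1, 2 and 4. The listed scores had means of 116 ± 34.6, 66.6 ± 44.8 and 40.6 ± 27.7 (SD, n = 3 each) in control, IG and TG. The ranges of neighbouring groups in that order overlapped, and the percentile over all 4 kidneys gave exact permutation p = 0.457 in IvC, 0.686 in TvI and 0.314 in TvC. The plot of scores by group shows 1 locus of each of the 4 genes, with each kidney as a point.

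**Figure D2:**
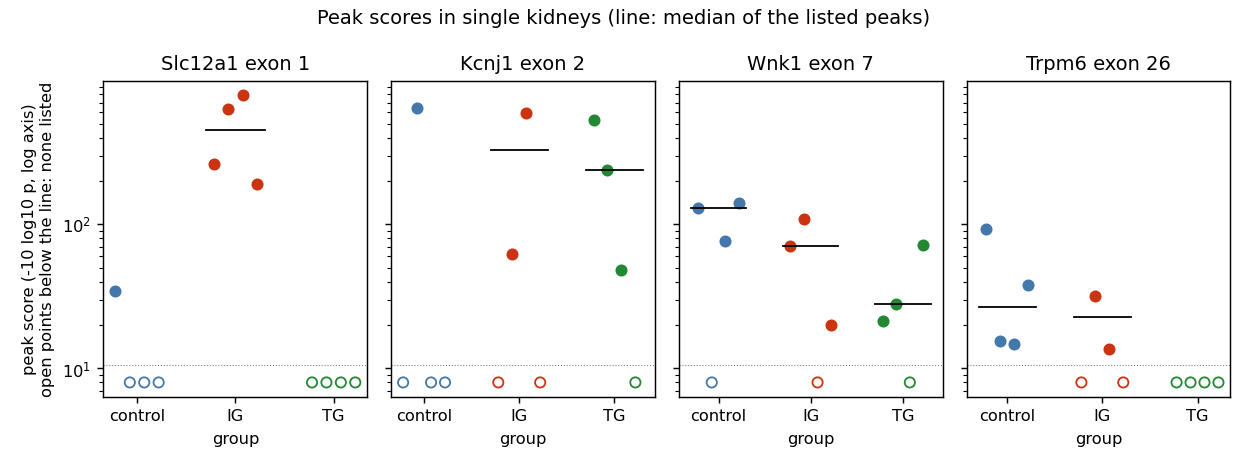
Peak scores (vertical log axis) at 4 loci in single kidneys by group, with filled points for listed peaks, open points below the dotted line for kidneys with none and a line at the median of the listed peaks. All 4 IG kidneys lie above the control and TG kidneys at Slc12a1 exon 1, and the groups overlap at Kcnj1 exon 2 and Wnk1 exon 7.

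The 5 genes without a listed peak were Slc12a3, Umod, Cldn16, Cldn10 and Calb1. No peak lay anywhere in their gene bodies on either strand in any of the 12 kidneys. Their transcripts held the consensus at 12.8 to 17.5 matches per kb, against 13.4 to 17.5 per kb in the 4 genes with a peak. Umod held 7 GGACT in 2625 nt and Slc12a3 held 5 in 3299 nt, more than the 2 in the 4740 nt of Slc12a1. The number of matches therefore overlapped between members with a peak and those without. In the transcript with the longest coding sequence, the longest exon was 395 nt in Slc12a3, 465 nt in Cldn16, 780 nt in Umod, 1298 nt in Cldn10 and 3415 nt in Calb1, and 1142 to 2877 nt in the 4 genes with a peak. Over all genes and all their transcripts, the median longest exon was 2326 nt in genes with a peak and 1318 nt in genes without. No peak in a list does not show that a transcript is unmethylated, since peaks under the score limit were left out and depth is unknown.

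Across the 7 loci, the counts called stood as follows, where a locus was called when the 4 kidneys of a group did not overlap the 4 of the other. In IvC, 0 of 7 loci were called by listing, beside 2.73% of all loci lower in IG and 1.35% higher. By percentile 1 of 7 was higher in IG, Slc12a1 exon 1, beside 3.87% of all loci, and 0 of 7 lower, beside 8.84%. By number of peaks, 0 of the 4 genes were called in IvC, beside 4.89% of genes lower and 2.26% higher. In TvI, 1 of 7 loci was lower in TG by listing, beside 0.449% of all loci, and 1 of 7 by percentile, beside 2.26%, again Slc12a1 exon 1. None was higher, beside 0.225% by listing and 1.32% by percentile. By number of peaks, 1 of 4 genes was lower in TvI, beside 0.87%, and 0 higher, beside 0.27%. With 7 loci, of which 4 belong to 1 gene and share its kidneys, 1 called locus is too few to set the genes apart from the background.

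The median percentile difference over the 7 loci was 11.2 points in IvC and -13.6 in TvI, beside -2.95 and -2.65 over all loci tested. In IvC 5 of the 7 loci had the higher mean in IG, beside 38.4% of all loci, and 4 of these 5 were those of Slc12a1. In TvI 6 of the 7 had the lower mean in TG, Kcnj1 being the exception, and so had 63.4% of all loci. IvC and TvI share the IG kidneys, so the opposite signs are not independent of each other.

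**Figure D3:**
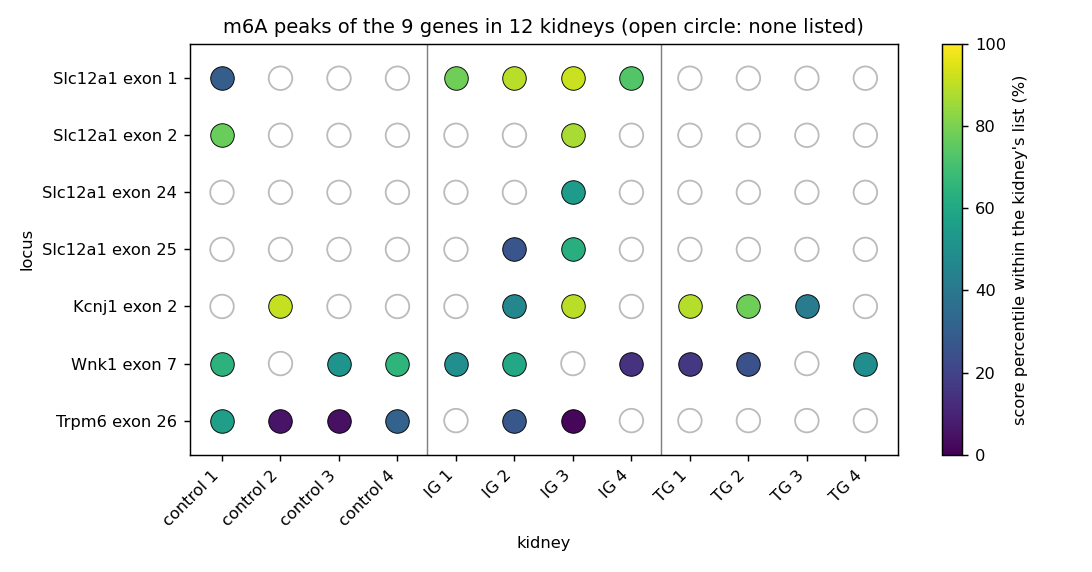
Score percentile within the list of each kidney (colour, 0 to 100%) for the 7 loci (rows) in the 12 kidneys (columns, groups parted by grey lines), with open circles where no peak was listed. Slc12a1 exon 1 is filled in all 4 IG kidneys and Trpm6 exon 26 in all 4 control kidneys, while both are open in all 4 TG kidneys.

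The loci whose percentiles followed Slc12a1 exon 1 most closely over the 12 kidneys were taken from the 7024 loci listed in 6 or more kidneys. They were a locus at chr16:91508737-91510522 with no protein-coding gene on its strand (Pearson r = 0.920), a locus of Dido1 at chr2:180688711-180690161 (r = 0.894) and a locus of Limch1 at chr5:67017617-67017777 (r = 0.889). For Trpm6 exon 26 they were loci of Adra1a (r = 0.982), Ccdc166 (r = 0.944) and Nufip2 (r = 0.937). These are the highest of many correlations over 12 kidneys, with all loci of a kidney read from the same library. They are given as descriptions.

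A list of 22 other genes of the thick limb held loci that were lower in all 4 IG than in all 4 control kidneys, and Casr had the most of them. Of the 22 genes, 15 had a peak (68.2%), in 33 loci. In IvC 2 of 29 tested loci were lower in IG by listing and 6 by percentile, beside 2.73% and 8.84% of all loci, and none was higher. The 2 became 4 without control 1. In TvI 1 of 29 loci was higher in TG by listing and 2 by percentile, beside 0.225% and 1.32% of all loci, and none was lower. The median difference was -10.9 percentile points in IvC and 2.18 in TvI, beside the -2.95 and -2.65 of all loci.

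Casr encodes the calcium-sensing receptor, which restrains salt and calcium uptake in the thick limb, and it had 3 of the 6 loci lower in IG. At exon 2, chr16:36517602-36518028, the scores were 717.57, 454.17, 820.73 and 901.49 in control, no IG kidney had a peak, and TG had 78.85, 69.91, 33.84 and 64.66. The Casr exon 2 peak was thus listed in all 4 TG kidneys at scores below every control kidney (exact permutation p of the percentile = 0.0286 in both IvC and TvI, with adjusted p = 0.225 and 0.798). Its call in TvI was lost when peaks scoring under the overall median were left out. At exon 4, chr16:36509594-36510478, control scores of 799.57 to 1307.76 stood against 0 to 113.64 in IG and 65.21 to 226.63 in TG, where 0 means no listed peak. At exon 5, chr16:36500177-36500407, control scores were 75.88 to 241.23, no IG kidney had a peak and 2 TG kidneys did. IG and TG overlapped at exons 4 and 5. Casr had 5 loci, and those not called in IvC or TvI are not described here. Counted over all 5 loci, Casr had a peak in all 4 kidneys of each group. At the 3 called Casr exons the mean percentile was highest in control, then TG, then IG. At Slc12a1 exon 1 it was highest in IG, then control, and 0 in TG.

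The remaining called loci of the thick limb list belonged to Pou3f3, Bsnd, Sostdc1 and Stk39. Pou3f3 encodes a transcription factor of the loop of Henle, Bsnd the protein barttin, Sostdc1 a secreted BMP and Wnt antagonist, and Stk39 the kinase SPAK, which acts between Wnk1 and the cotransporters. The mean percentile of Bsnd exon 4 was 93.4 in control, 38.2 in IG and 50.7 in TG, and that of Pou3f3 exon 1 was 98.6, 87.7 and 89.9. Sostdc1 exon 1 stood at 55.3 in control, 10.8 in IG and 52.2 in TG. With equal list lengths neither was called in IvC, where the difference was -12.7 in place of -10.9 percentile points for Pou3f3 and -25.0 in place of -44.5 for Sostdc1. Stk39 exon 10 was called in TvI, with scores of 33.52, 161.66, 64.87 and 114.40 in IG and 217.27, 321.84, 198.28 and 434.19 in TG.

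**Figure D4:**
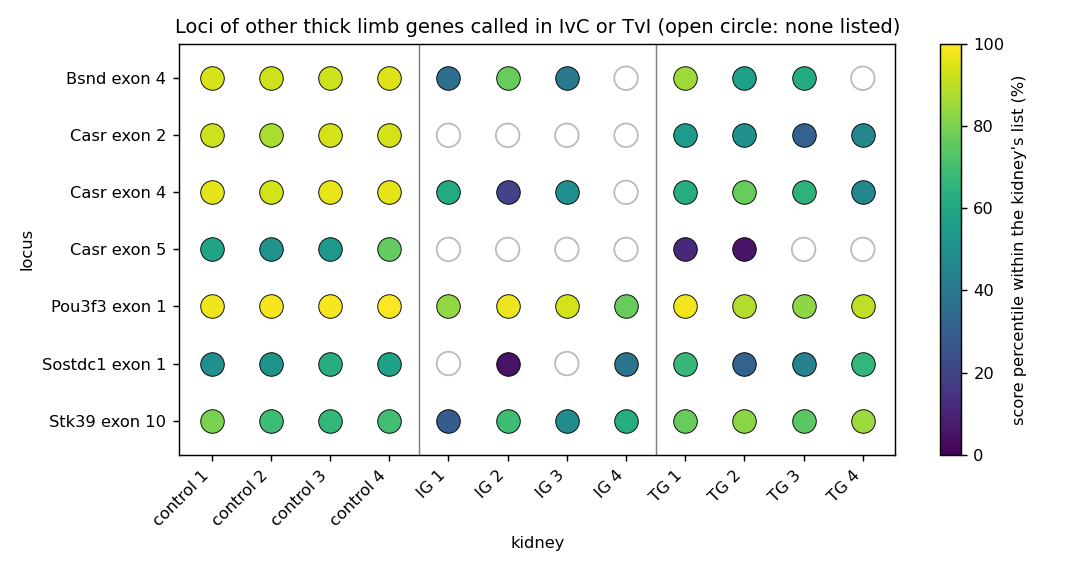
Score percentile within the list of each kidney (colour, 0 to 100%) at the 7 called loci of other thick limb genes (rows) in 12 kidneys (columns), with open circles where no peak was listed. Casr exons 2 and 5 are open in all 4 IG kidneys and filled in all 4 control kidneys.

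In the distal segments no locus was called in either comparison, beside 2.73% of all loci lower and 1.35% higher by listing and 8.84% and 3.87% by percentile in IvC, and 0.449%, 0.225%, 2.26% and 1.32% in TvI. Of 17 other genes of the distal convoluted tubule, 13 had a peak (76.5%), with 32 loci tested in IvC and 27 in TvI. Of 15 genes of the connecting tubule and principal cells, 11 had a peak (73.3%), with 29 and 26 loci tested. Klhl3, whose product marks WNK kinases for degradation, had a peak in 4 control, 3 IG and 4 TG kidneys, while Wnk4 and Sgk1 had none in the lists analysed here. The median differences in IvC were -6.56 and -1.83 percentile points for these 2 lists.

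**Figure D5:**
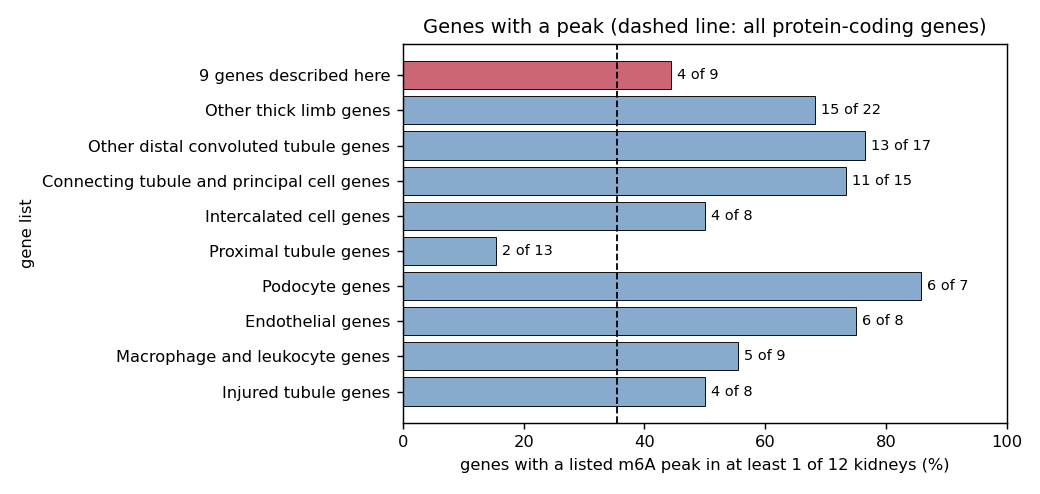
Share of genes with a listed m6A peak in at least 1 of 12 kidneys (horizontal axis, %) for each gene list (bars from 0, with counts), and for all protein-coding genes (dashed line at 35.4%). The 9 genes stand at 4 of 9, below the 15 of 22 of the other thick limb genes and above the 2 of 13 of the proximal tubule genes.

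Some loci in some lists of markers of other kidney cells were also called, but none of these loci passed the adjustment over all loci. The part of these markers in the values of the 9 genes was not tested. Among 8 genes of injured tubules, with 2 to 3 listed peaks per control kidney, 5 to 7 per IG and 5 per TG kidney, Havcr1 exon 3 and Sox9 exon 3 had a peak in all 4 IG kidneys and in no control kidney, and Vcam1 exon 9 was lower by percentile in IG. These are 2 of 9 loci higher, beside 1.35% of all loci by listing and 3.87% by percentile, and 1 of 9 lower, beside 8.84%. With equal list lengths neither Havcr1 nor Vcam1 was called, with differences of 50.8 in place of 57.8 points for Havcr1 and -21.2 in place of -37.9 for Vcam1. Among 8 intercalated cell genes, with 4 listed peaks per control, 4 to 7 per IG and 4 to 5 per TG kidney, Atp6v1b1 exon 14 had a peak in all 4 IG and no control kidney, the 1 call among 7 loci tested in IvC, beside 1.35% of all loci higher by listing and 3.87% by percentile. Of the 7 loci 4 had the lower mean percentile in IG (median -1.72 points), beside 61.6% of all loci (median -2.95). In TvI all 7 had the lower mean in TG (median -8.84 points), beside 63.4% of all loci (median -2.65). Of 8 endothelial genes, with 4 to 8 listed peaks per control, 2 to 5 per IG and 2 to 7 per TG kidney, Plvap exon 3 had a peak in all 4 control and no IG kidney, and Pecam1 exon 8 was lower in IG by percentile, which with Plvap makes 2 of 11 loci lower, beside 8.84% of all loci. The mean percentile was lower in IG at 10 of these 11 endothelial loci (median -8.12 points), beside 61.6% of all loci (median -2.95). Of 7 podocyte genes, with 5 to 8, 3 to 5 and 5 to 8 listed peaks per kidney, Podxl exon 2 was lower in IG by percentile. This was 1 of 12 loci tested, beside 8.84% of all loci. The mean was higher in IG at 4 of the 12, beside 38.4% of all loci. Without control 3 or control 4, 2 loci were lower. In TvI Plce1 exon 7 had a peak in all 4 TG kidneys and in no IG kidney, 1 of 10 loci tested beside 0.225% of all loci. All Plce1 exon 7 peaks scored under the overall median, and its call was lost when such peaks were left out. In IvC and TvI no locus was called for 9 macrophage and leukocyte genes, of which 5 had a peak, with 1 to 3 listed peaks per control kidney, 1 to 3 per IG and 1 to 4 per TG kidney. Counted over all its exons, Itgam had a peak in 0 control, 4 IG and 4 TG kidneys, beside 2.26% of genes higher in IvC by number of peaks. Cd74 had a peak in 4 control, 3 IG and 1 TG kidneys. C1qa and Ptprc had a peak in 1 control kidney each, and C1qb in 1 IG kidney. These leukocyte genes were named after their values were seen. The defining macrophage markers Adgre1, Cd68 and Csf1r had no peak in the lists analysed here, and neither did Wt1 of podocytes or Lcn2 of injured tubules. Of 13 proximal tubule genes 2 had a peak, with 0 to 2 listed peaks per TG kidney and 0 in every control and IG kidney, and Lrp2 and Slc34a1 had none. A list of methylation peaks does not measure expression, so the tissue label could not be checked by the levels of these markers.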

How the data were processed

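The members and gene lists were chosen with earlier results of these data known. Per the labels and the methods of the study, the authors trimmed reads with Cutadapt 1.9.3, aligned them to mm10 with HISAT2 2.0.4, ran MACS kidney by kidney and retained peaks in mRNA exons. The MACS version, threshold and control library are not given in the sources used here. The deposited score is the −log10 of the p-value multiplied by 10. The 12 input libraries were not analysed here, and 1 sequence and some list genes are not reported here.

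Peaks that shared 1 bp or more formed a locus, whatever their strand, and were assigned to protein-coding exons of GENCODE M21 on the same strand. Percentiles were computed within each list. Listing was compared by two-sided Fisher's exact test, and percentile and number of peaks by two-sided exact permutation tests over 70 arrangements, with Benjamini-Hochberg adjustment over all loci or genes. A locus was called when groups did not overlap. Named were all members, their called loci in full, at most 3 called loci per list, measure, direction and comparison, and the 3 loci most like each called member locus. Sostdc1, Klhl3, Wnk4 and Sgk1 were named after their values were seen. Alternatives were equal list lengths, a minimum score, peaks within 100 bp joined, either strand, the replicate block, a difference of 3 of 4 kidneys, scores as deposited and each kidney left out. Calls were tested on simulated data. P-values measure only the spread between these kidneys, which the labels number without naming the animals. Python 3.11.15, numpy 2.4.6, scipy 1.17.1, pandas 2.3.3, pysam 0.24.0 and matplotlib 3.10.9 were used.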

Additional observations from a re-analysis of the deposited data

Results flagged for a closer look

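Of 17 sets of 4 kidneys with any difference at a member locus or in list length, 6 had a kidney far from the other 3. In 5 of the 6 the kidney was the only one of its group with a listed peak, so that the other 3 stood at 0 and the set stood out by construction. The rate of about 1 in 20 that chance gives for measured values does not apply to such sets. These were Kcnj1 exon 2 in control 2 (percentile 91.3), Slc12a1 exon 1 in control 1 (29.6), Slc12a1 exon 2 in control 1 (77.2) and in IG 3 (86.8), and Slc12a1 exon 24 in IG 3 (54.5). The sixth was Trpm6 exon 26 in IG 2, at percentile 27.1, where IG 3 stood at 1.80 and the other IG kidneys at 0. Control 1 and IG 3 each appear for Slc12a1 more than once, and IG 3 had the longest list of its group, with 8357 peaks. With equal list lengths control 1 had no listed peak at Slc12a1 exon 1.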

How the results depend on the processing

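By percentile, Slc12a1 exon 1 met the call rule in IvC and TvI, in the same direction, under every alternative run. With 1 kidney left out the smallest exact p is 0.0571, so no p could pass 0.05 there. The listing count in IvC went from 0 to 1 called locus, Slc12a1 exon 1, with equal list lengths (5901 peaks), with peaks scoring under the overall median (71.3) left out and with a difference of at least 3 of 4 kidneys. Leaving out each kidney in turn gave 0 to 1 called loci by listing in IvC, 1 without control 1, and 0 to 1 genes by number of peaks in IvC, again 1 without control 1. By percentile it gave 1 to 2 loci in IvC, since Trpm6 exon 26 was called as lower without IG 2, and 1 to 2 in TvC, since Wnk1 exon 7 was called as lower without control 2. The call of Trpm6 in TvC went from 1 to 0 by listing, percentile and number of peaks with equal list lengths and with the lower-scoring peaks left out. The direction turned in IvC for Kcnj1 exon 2, to -0.928 percentile points with the lower-scoring peaks left out and to -7.37 without IG 3, within a range up to 34.1 without control 2. It turned for Slc12a1 exon 2, to -4.03 without any 1 of control 2, 3 or 4 and to -19.3 without IG 3, within a range up to 21.7 without control 1. In TvI it turned for Wnk1 exon 7, to 1.30 points without IG 2, within a range down to -18.7 without IG 3. None of these 3 loci was called.

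With the replicate number as a block, a locus was called when all 4 differences between kidneys of the same number had 1 sign, for which the smallest exact p is 0.125 and cannot pass 0.05 either. With this replicate block 0 loci were called by listing and 1 by percentile in IvC, and 1 and 1 in TvI, as without it. The deviations of kidneys that share a number correlated at -0.0328 to 0.0960 over loci. Whether these kidneys shared more than a number is not in the labels, and these values cannot decide it. Percentiles over loci listed in all 8 kidneys gave no value, because no member locus had such a peak. Among other thick limb genes the 6 loci lower by percentile in IvC became 1 when only loci listed in all 8 kidneys were kept, which drops by construction the 5 loci that lacked a peak in an IG kidney. Their 2 loci lower by listing became 4 with a difference of at least 3 of 4 kidneys, and their 2 loci higher by percentile in TvI became 4 with the replicate block. Of the named loci of other lists, Casr exon 2 and Plce1 exon 7 in TvI, and Havcr1 exon 3, Vcam1 exon 9, Pou3f3 exon 1 and Sostdc1 exon 1 in IvC lost their calls under at least 1 alternative. The absence of a peak is limited by the score threshold and by depth, which is unknown.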

Other observations

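Taken by kidney, the 9 genes had 4, 2, 2 and 2 listed peaks in the control kidneys, 2, 5, 6 and 2 in IG and 2, 2, 1 and 1 in TG. Kcnj1 and Wnk1 were listed together in 3 kidneys, IG 2, TG 1 and TG 2. The 3 kidneys without a Wnk1 peak, control 2, IG 3 and TG 3, each had a Kcnj1 peak. IG 2 was the kidney with peaks in the most members, with Kcnj1, Slc12a1, Trpm6 and Wnk1.

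Of the other thick limb genes, Egf and Ppp1r1a had a peak in 3 IG kidneys each and in 0 control kidneys, with 3 and 2 TG kidneys. Cldn3, a claudin of tubular tight junctions, had a peak in 3 control kidneys and in 0 IG and 0 TG kidneys. Ptger3, a prostaglandin E2 receptor, had a peak in 4, 3 and 3 kidneys of the groups, and Irx1, a transcription factor of nephron patterning, in 4, 3 and 4. Cldn14, Enox1, Kcnt1, Nos1 and Umodl1 had no peak in the lists analysed here. These genes were named after their values were seen.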
